A study of Mus musculus with 12 samples.

Results

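The response of GM-MF to lipopolysaccharide (LPS) is the difference between 3 arrays of macrophages that received LPS and 3 arrays of macrophages left without it, 6 of the 12 arrays of the study, read across 19938 genes. GM-MF are the cells labelled macrophage in cultures of C57B/6 mouse bone marrow, flushed from tibia and femur and grown for 6 days with 20 ng/ml of the myeloid growth factor GM-CSF. The LPS group was given 10 ng/ml LPS for 4 hours and the unstimulated group was not, and the labels give no other difference in strain, genotype or culture. The other 6 arrays hold GM-DC, the cells labelled dendritic cell from cultures of the same kind, with and without LPS, and the labels do not say how the cell types were separated. RNA was measured on Affymetrix Mouse Gene 1.0 arrays, 1 array per sample.

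LPS, a lipid of the outer membrane of Gram-negative bacteria, is detected by macrophages through TLR4 with its partners MD-2 and CD14. Signals through the adaptor MyD88 activate NF-kB and MAP kinases and switch on inflammatory cytokine genes, and signals through the adaptor TRIF activate IRF3, which with NF-kB switches on the gene of interferon beta. Secreted interferon then acts on the same cells through STAT proteins and raises antiviral genes, while inhibitors such as IkB alpha, A20 and the SOCS proteins restrain the response.

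Macrophage identity was checked on a list of macrophage markers, of which 10 of 11 were measured. Their mean levels ran from 8.67 to 12.9 with LPS and from 8.04 to 12.9 without it, in log2 expression, where the median of an array was between 4.41 and 4.54. The lowest of them, Mertk, stood at the 84.9th percentile of all genes in unstimulated cells. Within a group, correlations between arrays over all genes were 0.993 to 0.996. The first principal component of the 6 arrays, with 66.6% of the variance, parted LPS from unstimulated arrays, and on the second, with 13.5%, unstimulated replicate 2 stood apart from the other arrays. The labels do not say that replicates came from separate mice or cultures, so p-values reflect no more than how these arrays vary among themselves, and that variation may be technical.

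LPS changed 3461 genes, 17.4% of those tested, at an adjusted p under 0.05 in limma, the rule for a call used throughout. There were 1304 genes higher with LPS (6.54%) and 2157 lower (10.8%), so that 37.7% of calls were upward, against 49.4% after cyclic loess between arrays. Changes of at least 2-fold were found for 633 genes (3.17%), 359 of them higher with LPS (1.8%) and 274 lower (1.37%). The upward changes were larger: 80 genes rose at least 4-fold, 25 at least 8-fold and 7 at least 16-fold, whereas 26 fell at least 4-fold and 0 fell 8-fold or more. The 3 LPS arrays all lay above the 3 unstimulated arrays for 12.3% of genes and all below them for 19.1%. Of the 9969 genes with a mean above the median gene mean, fitted alone, 1277 were called higher and 2347 lower. Calls were thus more frequent among genes of higher signal, which most gene lists below hold. Shares over all genes are therefore a low reference for those lists. The median log2 difference was -0.02 over all genes, 0.70 over genes called higher and -0.57 over genes called lower. Differences are given as LPS minus unstimulated on the log2 scale, followed after ± by the standard error from limma, n = 3 arrays per group. That error and the p-values rest on a spread shared by all 4 groups, so the GM-DC arrays enter them. No probe set was tested against background, so where a level lies near the array median the fold is a ratio of signals. In whole cell populations a change in the number of expressing cells and a change in RNA per cell cannot be told apart.

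**Figure D1:**
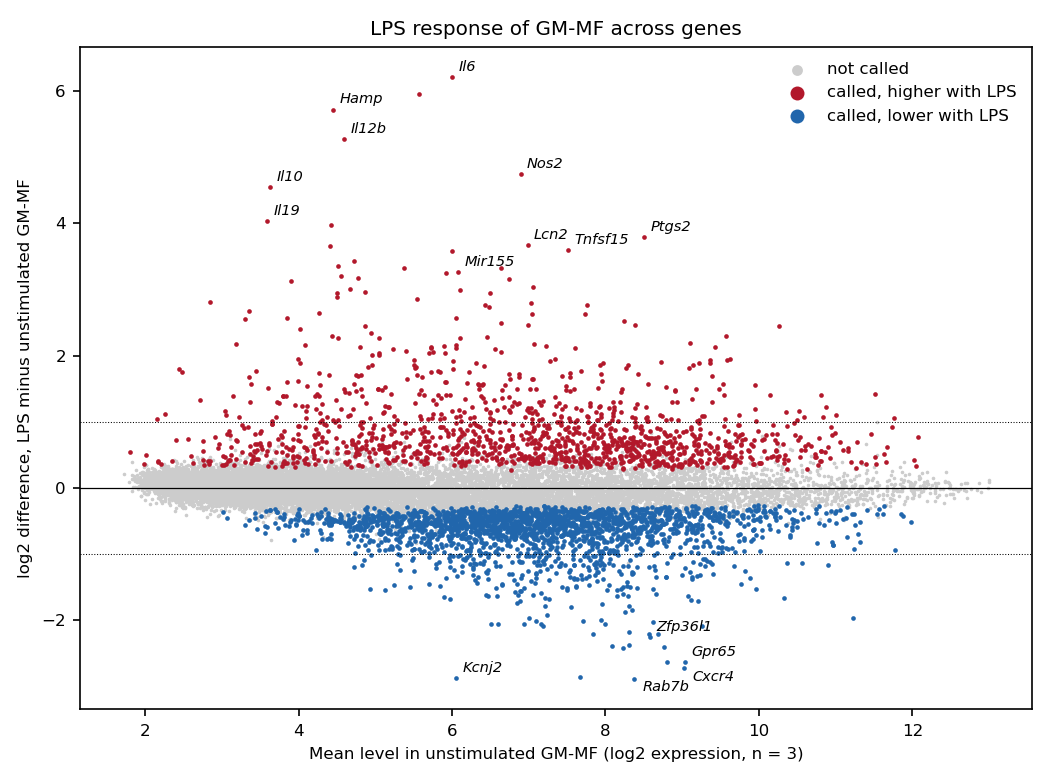
Each point is 1 of 19938 genes, with its mean log2 level in unstimulated GM-MF on the x axis and its log2 difference, LPS minus unstimulated, on the y axis, and dotted lines at 2-fold. Red genes (1304) were called higher with LPS, blue genes (2157) lower, and the red points reach further from 0 than the blue ones.

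Il6, an inflammatory and acute phase cytokine, read 12.28, 12.02 and 12.36 with LPS, against 5.57, 6.88 and 5.57 in unstimulated cells. That is a difference of 6.21 ± 0.29, or 74.3-fold (adjusted p = 3.42e-09), and the groups lay more than 5 log2 units apart at their closest. Hamp, which encodes the iron-regulating hormone hepcidin, read 10.16, 10.37 and 10.00 with LPS, against 4.15, 4.25 and 4.97 without it, 52.8-fold higher (5.72 ± 0.25, adjusted p = 1.88e-09). Il12b, the p40 subunit of interleukin-12 and interleukin-23, read 9.76, 10.07 and 9.78 with LPS and 4.49, 5.25 and 4.05 in unstimulated cells, 38.7-fold higher (5.27 ± 0.24). Nos2, the inducible nitric oxide synthase, read 11.68, 11.75 and 11.50 with LPS, against 6.15, 8.43 and 6.11 in unstimulated cells. Unstimulated replicate 2 was thus the highest of its group for Nos2, although still below each LPS array. The Nos2 increase was 26.8-fold (4.75 ± 0.44, adjusted p = 2.66e-06) with that array and 45.7-fold without it.

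Il10, the anti-inflammatory cytokine, read 7.87, 8.31 and 8.34 with LPS and 3.32, 4.12 and 3.44 without it, 23.4-fold higher (4.55 ± 0.21). Il19, of the interleukin-10 family, read 7.53, 7.35 and 8.0 with LPS, against 3.66, 3.54 and 3.57 in unstimulated cells, 16.4-fold higher (4.04 ± 0.15, adjusted p = 5.70e-10). Both genes had unstimulated values below the median of their arrays and LPS values well above it. Ptgs2, the cyclooxygenase that starts prostaglandin synthesis, read 12.33, 12.08 and 12.46 with LPS, against 8.23, 8.97 and 8.30, a 13.8-fold increase from a level that was already above the array median. The other genes of the 20 with the largest increases rose between 9.05-fold and 15.7-fold. They included Il1f6, the cytokine interleukin-36 alpha (3.97 ± 0.19), Lcn2, the siderophore-binding lipocalin (3.67 ± 0.13), and Tnfsf15, a ligand of the tumour necrosis factor family (3.59 ± 0.19). Hdc, which makes histamine (3.43 ± 0.17), Penk, the precursor of enkephalins (3.36 ± 0.24), Edn1, the vasoconstrictor endothelin 1 (3.32 ± 0.29), and Fst, the activin antagonist follistatin (3.32 ± 0.15), belonged to the same 20. So did the membrane proteins Tpbg (3.66 ± 0.21) and Calhm6 (3.59 ± 0.23), the CD30 ligand Tnfsf8 (3.24 ± 0.27), Serpinb1a (3.21 ± 0.16), an inhibitor of neutrophil proteases, the microRNA gene Mir155 (3.26 ± 0.17) and Il12a, the p35 subunit of interleukin-12 (3.18 ± 0.21). All 20 were called under every alternative processing that tested them.

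**Figure D2:**
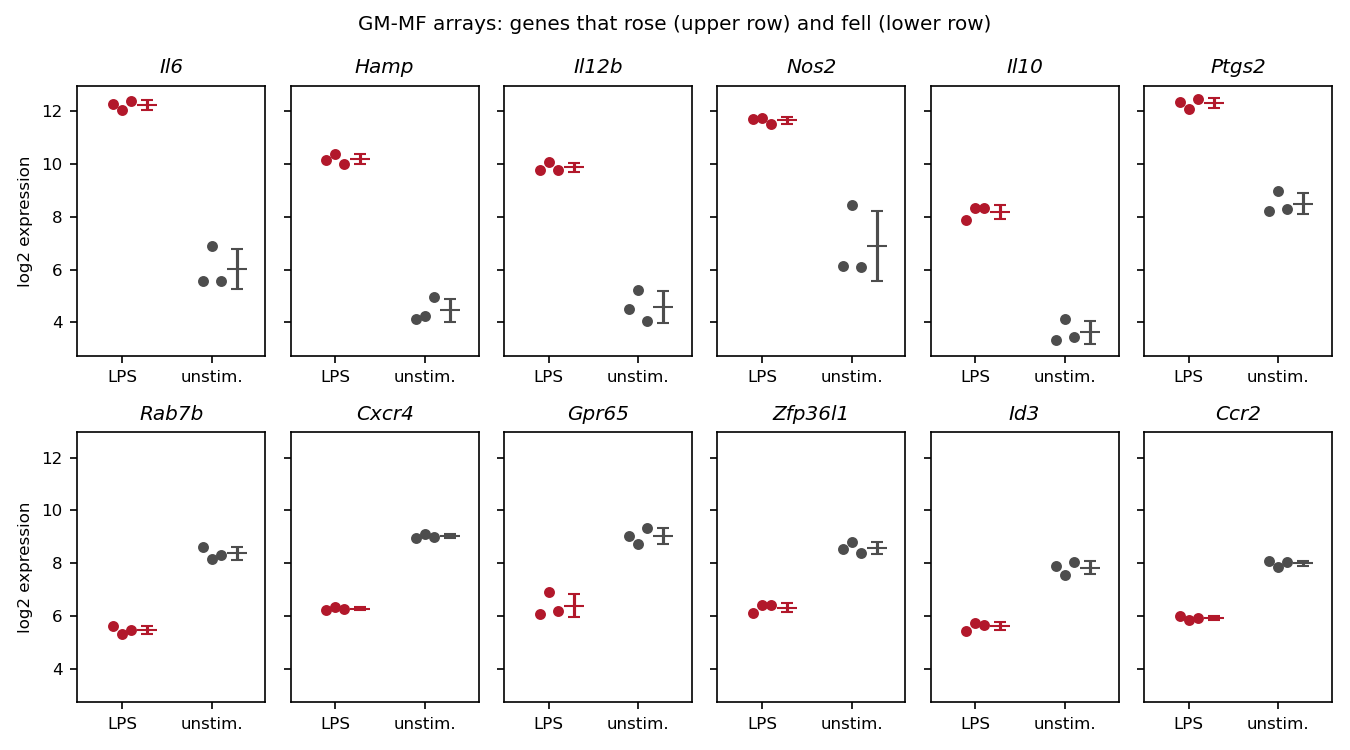
Log2 expression in each GM-MF array, with LPS on the left and unstimulated on the right of each panel. Points are arrays, the horizontal tick is the group mean and the bar the SD (n = 3), and in none of the 12 genes do the groups overlap.

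The response differed from that of GM-DC for many of these genes. The interaction, the GM-MF response minus the GM-DC response, was called for 1514 genes (7.59%), positive in 610 (3.06%) and negative in 904 (4.53%). It was called for 36 of the 40 genes with the largest increases or decreases in GM-MF. Those 40 were picked by their GM-MF response, which is part of the interaction, so the choice itself favours a large share. Of the 359 genes at least 2-fold higher in GM-MF 158 were also called higher in GM-DC and 3 were called lower there. Of the 274 at least 2-fold lower in GM-MF 114 were also called lower in GM-DC and 16 were called higher. The share of all genes called in GM-DC is not given here, so counts of GM-DC calls, here and below, lack that reference. Il6 rose by 6.21 in GM-MF and by 1.98 in GM-DC, an interaction of 4.23 (adjusted p = 1.26e-05). The interaction was 4.05 for Hamp (adjusted p = 4.36e-06), 3.56 for Il19 and 3.27 for Penk. For Ptgs2, with 3.79 in GM-MF and 3.22 in GM-DC, it was not called (0.57, adjusted p = 0.594).

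Of 30 cytokine genes measured 24 rose, 80.0% against 6.54% of all genes, 2 fell and 4 did not pass, with a median difference of 1.85 against -0.02 over all genes. In 21 the increase was at least 2-fold. Beside the interleukins above, Ifnb1, which encodes interferon beta, read 7.42, 7.12 and 7.83 with LPS, against 4.25, 4.13 and 5.14 in unstimulated cells (2.95 ± 0.22, 7.72-fold, adjusted p = 4.26e-07). Il1b, the pyrogenic cytokine interleukin-1 beta, read 11.89, 11.70 and 11.99 with LPS, against 9.51, 9.74 and 9.46 (2.29 ± 0.18). Tnf, tumour necrosis factor, read 11.99, 11.72 and 11.98 with LPS and 10.78, 11.02 and 10.71 in unstimulated cells. The groups did not overlap for any of these, and Tnf rose by 1.06 ± 0.27 (adjusted p = 0.0115), a smaller increase than in GM-DC (2.81, interaction -1.74, adjusted p = 0.00928). Il1a, the sister cytokine interleukin-1 alpha, rose by 1.94 ± 0.20, and Il1rn, which blocks the receptor of both, by 1.07 ± 0.21. Il18, a further member of the interleukin-1 family, read 5.82, 5.56 and 6.35 with LPS, against 3.98, 3.86 and 4.22 in unstimulated cells (1.89 ± 0.22). Those that fell were Vegfa, the vascular growth factor (-1.14 ± 0.28), and Tgfb1, the growth factor TGF-beta 1 (-0.42 ± 0.12), which lost its call without LPS replicate 2, LPS replicate 3 or unstimulated replicate 1. The Vegfa values were 7.59, 7.82 and 7.54 with LPS, against 8.46, 9.40 and 8.54, and the call was lost without unstimulated replicate 2 (adjusted p = 0.0525). Of the members that did not pass, Ebi3, a subunit of interleukin-27, had a mean difference of 0.36 ± 0.13 and Lif, leukaemia inhibitory factor, of 0.63 ± 0.21.

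Chemokines, which direct leukocyte migration, followed the cytokines: 15 of 24 measured members rose, 62.5% against 6.54% of all genes, 0 fell and 9 did not pass, with a median of 1.07. Ccl7, which attracts monocytes, read 9.79, 9.80 and 10.67 with LPS and 6.72, 6.71 and 7.72 without it, 8.20-fold higher (3.04 ± 0.26, adjusted p = 1.18e-06). Replicate 3 was the highest array of each group for Ccl7, and the groups lay apart. The T cell attractant Cxcl9 rose by 2.76 ± 0.18, the neutrophil attractant Cxcl1 by 2.63 ± 0.25 and the inflammatory chemokine Ccl4 by 2.45 ± 0.23. Ccl3, another inflammatory chemokine, read 12.83, 12.70 and 12.91 with LPS and 11.63, 11.76 and 11.90 without it, a rise of 1.05 ± 0.14, against 4.25 in GM-DC (interaction -3.20). Ccl17 (0.08 ± 0.17), a ligand of CCR4, and Ccl6 (0.04 ± 0.16) did not pass, and their groups overlapped. Of 17 chemokine and chemoattractant receptors 2 were higher (11.8% against 6.54% of all genes), 6 lower (35.3% against 10.8%) and 9 not called. Ccr7, the receptor that guides cells to lymph nodes, read 9.39, 10.06 and 8.91 with LPS, against 6.86, 7.62 and 6.49 in unstimulated cells (2.47 ± 0.26, adjusted p = 1.04e-05), and Ccrl2, a chemerin-binding receptor, rose by 1.49 ± 0.16. Cxcr4, the receptor of the marrow chemokine CXCL12, was uniformly lower: 6.21, 6.35 and 6.28 with LPS against 8.96, 9.11 and 8.98 (-2.74 ± 0.12, adjusted p = 1.85e-09). Ccr2, the monocyte receptor of CCL2, fell by 2.06 ± 0.13, and Gpr183, a receptor for oxysterols, fell by 2.06 ± 0.20. Ccr7 (GM-DC response -0.05, interaction 2.52, adjusted p = 0.000513) and Ccr2 (0.01, interaction -2.07, adjusted p = 5.23e-06) responded in GM-MF differently from GM-DC.

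**Figure D3:**
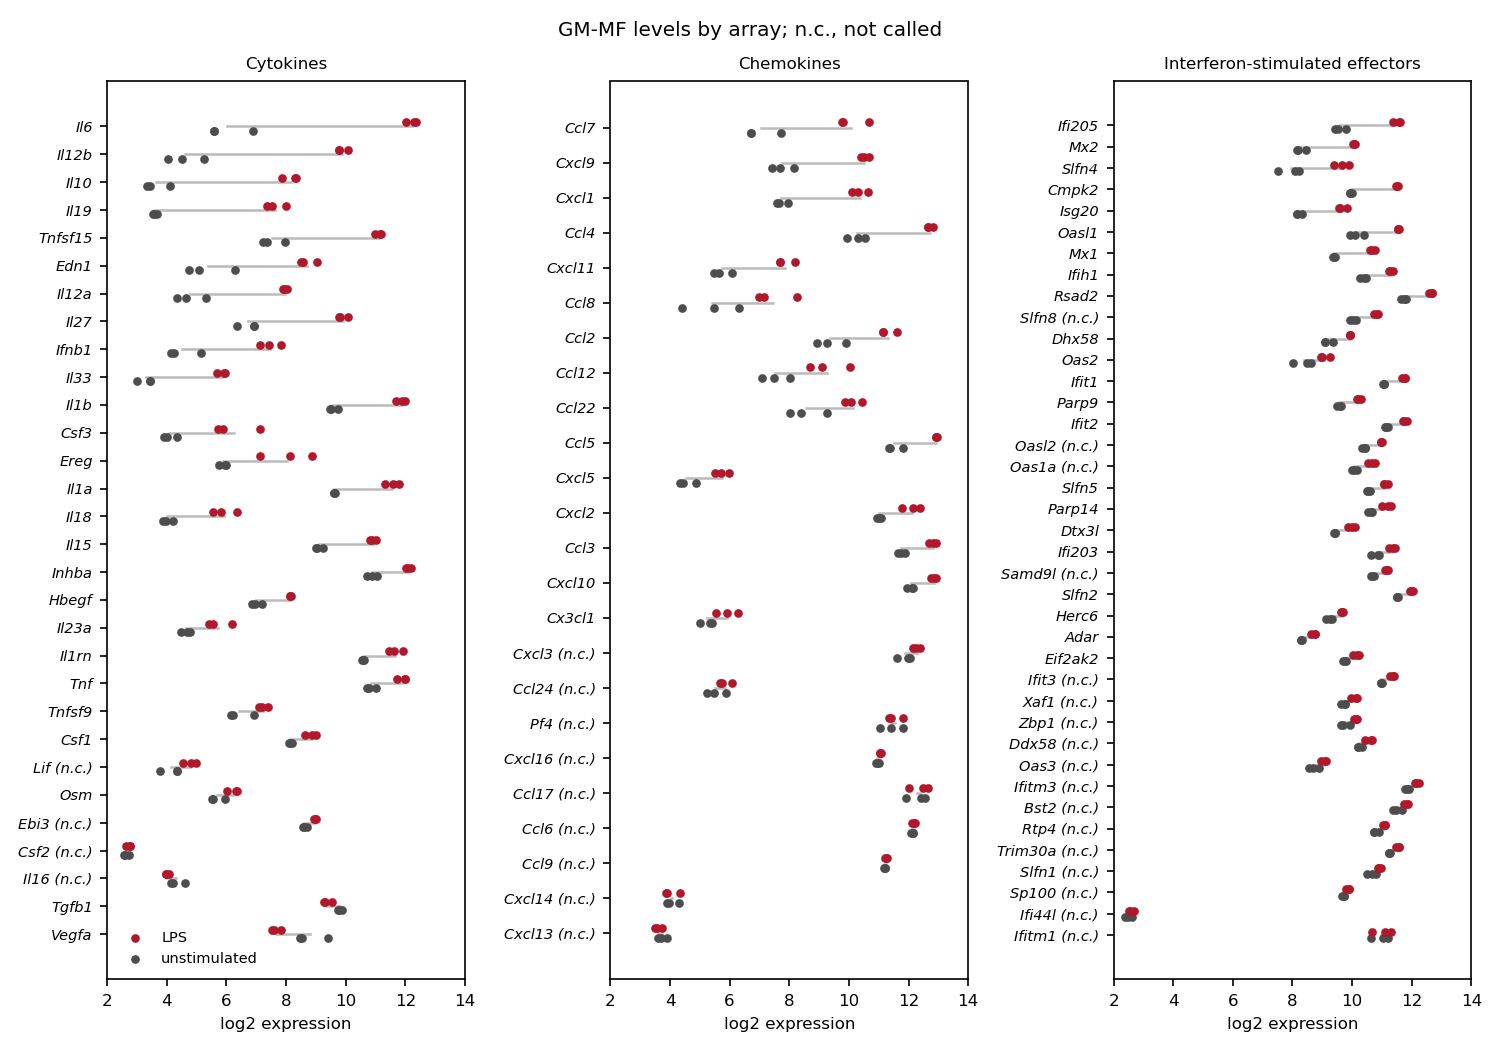
Log2 expression (x axis) of every measured cytokine, chemokine and interferon-stimulated effector in the GM-MF arrays, sorted by difference, with n.c. for genes not called. Red points are the 3 arrays with LPS, grey points the 3 unstimulated arrays and the line joins the group means. In the third panel both groups sit close together for most genes.

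Promoter sequences of 4 of these genes are shown because each holds a match to a motif of a factor that LPS is known to activate. They are RefSeq windows on GRCm38.p6, from 250 bases before the annotated start to 50 after it, and capitals mark matches on either strand to the NF-kB motif (GGGA and TTCC with any 2 bases between them), the interferon-stimulated response element or ISRE (GAAA and GAAA with any 2 bases between them) or the AP-1 motif TGANTCA. The 4 genes were picked after matches were seen. Il6 lies at chr5:30012864-30013163 (plus strand), Ifnb1 at chr4:88522745-88523044 (minus strand, shown in the direction of the gene), Cxcl1 at chr5:90890995-90891294 (plus strand) and Gbp5, an interferon-inducible GTPase gene, at chr3:142496684-142496983 (plus strand).
Il6: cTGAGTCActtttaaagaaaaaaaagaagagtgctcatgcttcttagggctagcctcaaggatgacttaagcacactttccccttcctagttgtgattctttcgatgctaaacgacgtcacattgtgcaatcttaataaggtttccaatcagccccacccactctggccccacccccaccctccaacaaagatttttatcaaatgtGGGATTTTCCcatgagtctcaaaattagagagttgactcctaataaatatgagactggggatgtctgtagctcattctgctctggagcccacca
Ifnb1: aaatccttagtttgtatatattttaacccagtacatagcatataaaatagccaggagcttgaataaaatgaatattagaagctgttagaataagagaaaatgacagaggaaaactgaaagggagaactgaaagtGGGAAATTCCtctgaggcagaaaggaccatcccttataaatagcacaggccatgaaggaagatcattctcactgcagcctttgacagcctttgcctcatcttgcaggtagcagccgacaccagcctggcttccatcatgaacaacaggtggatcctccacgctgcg
Cxcl1: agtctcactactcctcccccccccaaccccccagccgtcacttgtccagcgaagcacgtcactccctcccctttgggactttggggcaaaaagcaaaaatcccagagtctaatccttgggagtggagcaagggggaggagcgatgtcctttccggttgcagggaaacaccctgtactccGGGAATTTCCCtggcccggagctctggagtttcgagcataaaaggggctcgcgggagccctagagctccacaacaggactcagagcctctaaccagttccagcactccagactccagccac
Gbp5: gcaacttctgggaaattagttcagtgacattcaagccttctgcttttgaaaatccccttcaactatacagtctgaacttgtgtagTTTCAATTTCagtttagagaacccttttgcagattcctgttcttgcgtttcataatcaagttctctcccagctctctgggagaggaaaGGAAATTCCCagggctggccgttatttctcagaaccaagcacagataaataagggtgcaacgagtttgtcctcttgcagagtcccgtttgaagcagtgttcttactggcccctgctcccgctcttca
The Il6 window holds an AP-1 match in its first bases and an NF-kB match whose first base is at -44 from the start. The Ifnb1 window holds 1 NF-kB match, beginning at -116. In Cxcl1 a pair of NF-kB matches on opposite strands overlap, beginning at -71 and -70, and in Gbp5 an ISRE match begins at -165 and an NF-kB match at -77.

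Over the 15563 genes with such a window, 7 motifs were searched in all, these 3 and 4 others. The NF-kB motif was found in 1.6% of all genes, in 3.89% of the 257 genes that rose at least 2-fold and in 1.79% of the 223 that fell at least 2-fold. The ISRE was found in 3.89% of all genes, in 8.56% of those that rose and in 3.14% of those that fell, and AP-1 in 8.06%, 11.7% and 9.87%. A gene was counted when any of its windows held a match. By list, the NF-kB motif was found for 4 of 16 chemokine and 4 of 21 cytokine genes and the ISRE for 15 of 31 interferon-stimulated effectors. The other 4 motifs follow. A looser NF-kB motif (GGG, any 3 bases, T, any 1 base and CC) was in 21.5% of all genes, 28.4% of those that rose and 21.1% of those that fell at least 2-fold, but also in 25.5% of all genes called lower and in 19.2% of genes that rose at least 4-fold. The STAT motif TTCNNNGAA was in 9.01% of all genes, 10.1% of those that rose and 5.83% of those that fell, the cyclic AMP element TGACGTCA in 2.72%, 1.95% and 0.448%, and the sterol element TCACNCCAC in 1.39%, 1.56% and 2.24%. A match is a description of the letters and not a binding site, and these shares were not tested.

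Interferon-stimulated effectors, the antiviral genes, rose in 22 of 39 measured members (56.4% against 6.54% of all genes), fell in 0 and did not pass in 17, with a median of 0.56. The increases were small: 7 were at least 2-fold. Ifi205, a DNA-binding protein of the p200 family, read 11.59, 11.37 and 11.62 with LPS, against 9.43, 9.79 and 9.54 (1.94 ± 0.15). Mx2, an antiviral GTPase, rose by 1.81 ± 0.13, Slfn4, of the Schlafen family, by 1.73 ± 0.18, and Cmpk2, a nucleotide kinase, by 1.55 ± 0.15. Ifit1, which binds viral RNA, read 11.79, 11.69 and 11.77 with LPS, against 11.06, 11.07 and 11.04 in unstimulated cells. The Ifit1 groups were far tighter than their separation of 0.69 ± 0.15 (adjusted p = 0.00456). The list stood high before LPS: its median level was 10.9 with LPS and 10.1 without it in GM-MF, against 8.63 and 5.06 in GM-DC. In GM-DC 35 of the 39 rose, with a median of 2.89, and the interaction was called for 31 members, 29 with the smaller response in GM-MF. Ifit1 (interaction -3.97, adjusted p = 1.51e-07) was among them. Of the members not called in GM-MF, Oasl2 (0.58 ± 0.21, adjusted p = 0.0702), Slfn8 (0.79 ± 0.26, adjusted p = 0.0512) and Xaf1 (0.37 ± 0.16, adjusted p = 0.132) passed with the replicate number as a block (adjusted p = 0.00205, 0.000447 and 0.0414).

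The interferon-inducible GTPases, which attack vacuoles that hold microbes, rose in 8 of 9 measured members (88.9% against 6.54% of all genes), 5 of them at least 2-fold, with a median of 1.29. Iigp1 read 9.39, 9.04 and 9.21 with LPS and 6.47, 6.55 and 6.44 without it, 6.63-fold higher (2.73 ± 0.15, adjusted p = 1.43e-08), and its unstimulated arrays lay close together. Gbp4 rose by 2.17 ± 0.37, Gbp9 by 1.88 ± 0.19 and Gbp5 by 1.68 ± 0.12. The member that did not pass was Gbp7 (0.69 ± 0.27, adjusted p = 0.107), which passed with the replicate block (adjusted p = 0.0128). Some GBP genes and some IRG genes have close relatives within their own family, and the array's probes may not part such relatives fully. Among IRF, STAT and SOCS genes 14 of 26 rose (53.8% against 6.54% of all genes), 3 fell (11.5% against 10.8%) and 9 did not pass. The inhibitor of cytokine signalling Socs3 read 9.29, 9.60 and 9.41 with LPS, against 6.49, 6.80 and 6.19 in unstimulated cells, 7.68-fold higher (2.94 ± 0.16, adjusted p = 1.17e-08). Stat5a (1.91 ± 0.16), Socs1 (1.88 ± 0.11) and Cish (1.84 ± 0.15), a further SOCS family inhibitor, rose as well. Irf8, a myeloid transcription factor, rose by 1.62 ± 0.12 and Irf7, which amplifies interferon production, by 0.80 ± 0.16. Irf3, the factor downstream of TRIF, fell by 0.53 ± 0.09. Stat2, which carries the signal of interferon receptors, read 10.18, 10.20 and 10.13 with LPS and 10.11, 10.20 and 10.18 without it, so the groups overlapped.

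Of 31 measured genes of LPS recognition and Toll-like receptor signalling 10 rose (32.3% against 6.54% of all genes), 2 fell (6.45% against 10.8%) and 19 did not pass. The median was 0.12, and only 1 change reached 2-fold. That was Peli1, a ubiquitin ligase of the pathway, at 9.12, 8.98 and 9.17 with LPS and 7.53, 7.59 and 7.66 in unstimulated cells (1.5 ± 0.09, adjusted p = 4.36e-08). Map3k8, a kinase that activates MAP kinases, rose by 0.95 ± 0.14, and Cd14, which hands LPS to TLR4, by 0.79 ± 0.14 (adjusted p = 0.000736). The receptor Tlr4 itself read 8.27, 7.60 and 8.15 with LPS and 8.91, 8.52 and 9.0 without it, a difference of -0.80 ± 0.26 (adjusted p = 0.0487). The Tlr4 call was lost when any array except unstimulated replicate 2 was left out, and after 3 other scalings (adjusted p up to 0.204). Tlr2, the receptor of bacterial lipoproteins, did not pass (0.12 ± 0.14). Without unstimulated replicate 1 the list held 6 members called higher and 0 lower, without LPS replicate 3 also 0 lower, and without LPS replicate 1 or 2 or unstimulated replicate 3 there was 1 lower.

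NF-kB subunits, inhibitors and feedback genes rose in 12 of 24 members, where 6.54% of all genes rose, and fell in 0, with a median of 0.34. With the replicate block 1 member, the nuclear IkB protein gene Bcl3, was called lower (-0.46, adjusted p = 0.0395). Nfkbiz, another nuclear IkB protein, needed for secondary response genes such as Il6, read 9.31, 9.29 and 9.52 with LPS, against 7.11, 7.43 and 7.15 (2.14 ± 0.20, adjusted p = 2.65e-06). Tnfaip3, which encodes A20, rose by 1.52 ± 0.15, the subunit Rel by 1.49 ± 0.11 and the RNase Zc3h12a by 1.6 ± 0.15. The Rel difference in GM-DC was -0.20 and did not pass (interaction 1.70, adjusted p = 1.11e-05). Among MAP kinase phosphatases and Sprouty feedback genes 4 of 16 rose (25.0% against 6.54% of all genes) and 3 fell (18.8% against 10.8%). Dusp16, a phosphatase of JNK, rose by 1.47 ± 0.10, while Dusp6, a phosphatase of ERK, read 7.13, 6.82 and 7.53 with LPS, against 9.30, 9.04 and 9.44 (-2.10 ± 0.19, adjusted p = 2.43e-06). The groups lay apart in both genes, and in opposite directions.

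Immediate early and stress transcription factors were split, with 9 of 28 higher (32.1% against 6.54% of all genes), 8 lower (28.6% against 10.8%) and 11 not called. Nr4a3, an orphan nuclear receptor, read 8.60, 8.88 and 8.41 with LPS and 5.98, 6.96 and 5.21 in unstimulated cells (2.58 ± 0.31), and Batf, an AP-1 family factor, rose by 2.28 ± 0.23. Egr2 read 9.27, 9.40 and 9.11 with LPS, against 11.27, 11.17 and 11.25 (-1.97 ± 0.14, adjusted p = 1.79e-07), and Myc fell by 1.89 ± 0.16. Jun, a subunit of AP-1, fell by 0.97 ± 0.12. At 4 hours these factors therefore stood on either side of their unstimulated levels, each with groups that did not overlap. Myc moved the other way in GM-DC (0.87, interaction -2.76, adjusted p = 3.67e-06). Of 20 survival and death genes 8 rose, where 6.54% of all genes rose, and 3 fell, where 10.8% of all genes fell. Gadd45b, a stress-induced regulator of MAP kinases, rose by 1.88 ± 0.13, the death ligand gene Tnfsf10 by 1.72 ± 0.22 and the death-promoting Bcl2l11 by 1.54 ± 0.11, whereas Bcl2, which protects from death, fell by 0.85 ± 0.11.

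Regulators of mRNA decay and microRNA genes held large changes in both directions. Of 26 members 8 were higher (30.8% against 6.54% of all genes), 3 lower (11.5% against 10.8%) and 15 not called. Mir155, the gene of a microRNA of activated macrophages, read 9.32, 9.31 and 9.38 with LPS, against 6.16, 6.16 and 5.91 in unstimulated cells, 9.58-fold higher (3.26 ± 0.17, adjusted p = 1.15e-08). Mir221 read 8.07, 7.98 and 8.04 with LPS and 6.98, 7.20 and 6.97 without it (0.98 ± 0.10). Mir222, its neighbour on the X chromosome, read 5.99, 4.71 and 5.68 with LPS, against 4.59, 4.41 and 4.58. LPS replicate 2 of Mir222 lay close to the unstimulated arrays, and the call (0.93 ± 0.27, adjusted p = 0.026) was lost without any array except LPS replicate 2 (adjusted p up to 0.131). The values come from total RNA on an expression array and do not tell mature microRNA from longer RNA of the locus. The mature sequences from RefSeq (GRCm38.p6) are shown for the reader to see which seed each gene carries, with bases 2 to 8 in capitals.
mmu-miR-155-5p: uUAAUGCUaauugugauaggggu
mmu-miR-221-3p: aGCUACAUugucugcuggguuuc
mmu-miR-222-3p: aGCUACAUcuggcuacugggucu
The miR-221-3p and miR-222-3p arms share 1 seed, and miR-155-5p has another. Their loci are chr16:84714143-84714165 (plus strand), chrX:19146307-19146329 and chrX:19146901-19146923 (both minus strand). Arid5a, an RNA-binding protein that stabilises Il6 mRNA, rose by 1.41 ± 0.14. Zfp36, which encodes tristetraprolin, a decay factor of AU-rich mRNA, read 10.32, 10.39 and 10.40 with LPS, against 9.96, 10.17 and 9.89 (0.37 ± 0.11, adjusted p = 0.038), and the call was lost under 6 alternatives. Of its family members, Zfp36l1 read 6.12, 6.42 and 6.42 with LPS, against 8.54, 8.82 and 8.39 (-2.26 ± 0.13, adjusted p = 2.14e-08), and Zfp36l2 fell by 1.70 ± 0.12.

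Among other secreted or membrane immune effectors 17 of 32 rose (53.1% against 6.54% of all genes) and 2 fell (6.25% against 10.8%). The costimulatory ligand Cd80 read 9.05, 9.15 and 9.07 with LPS and 6.05, 5.88 and 6.37 in unstimulated cells, 7.94-fold higher (2.99 ± 0.14, adjusted p = 3.93e-09), and the costimulatory receptor Cd40 rose by 2.13 ± 0.20. Cd200, a ligand that restrains myeloid cells, rose by 1.94 ± 0.11. Of 21 MHC class II and class I genes, which present antigen, 5 rose (23.8% against 6.54% of all genes) and 1 fell (4.76% against 10.8%). The other 15 did not pass, and 0 changed 2-fold. The class II gene H2-Ab1 read 12.06, 11.99 and 11.94 with LPS and 12.06, 12.02 and 11.99 without it. The peptide transporter Tap1 rose by 0.64 ± 0.10 and the proteasome activator Psme2 by 0.56 ± 0.09. The count of class I and II members called higher was 3 when 1 array was left out in 4 of 6 cases, 8 with an intensity trend in eBayes and 9 with array weights, and the count called lower was 0 without LPS replicate 1 or 3 or unstimulated replicate 2. Of 20 inflammasome and pyroptosis genes 7 rose, where 6.54% of all genes rose, and 3 fell, where 10.8% of all genes fell. The peptidoglycan sensor Nod1 rose by 1.47 ± 0.22 and the LPS-binding caspase Casp4 by 0.85 ± 0.14, and the flagellin inflammasome gene Nlrc4 fell by 1.15 ± 0.19. Inflammasome members called higher numbered 3 without LPS replicate 1 or unstimulated replicate 1 and 4 without LPS replicate 3 or unstimulated replicate 3. Of 38 phagocytic, scavenger and Fc receptors 4 rose (10.5% against 6.54% of all genes) and 2 fell (5.26% against 10.8%), shares near or under those of all genes. Members called lower numbered 5 with the replicate block within each cell type, with array weights or without unstimulated replicate 2. The scavenger receptor Marco (1.83 ± 0.23) and the Fc receptor Fcgr4 (1.70 ± 0.26) rose and the scavenger receptor Stab1 fell by 1.56 ± 0.13.

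Among the 20 genes with the largest decreases, Rab7b, a GTPase of late endosome traffic, read 5.61, 5.33 and 5.48 with LPS, against 8.63, 8.18 and 8.31 in unstimulated cells, 7.45-fold lower (-2.90 ± 0.12, adjusted p = 1.85e-09). Kcnj2, an inward rectifier potassium channel, read 3.37, 3.13 and 3.01 with LPS and 6.56, 5.18 and 6.42 without it (-2.88 ± 0.25). Cd300lb, an activating receptor of the CD300 family, read 4.99, 4.74 and 4.67 with LPS, against 7.83, 7.07 and 8.10 (-2.87 ± 0.21). In Kcnj2 and Cd300lb unstimulated replicate 2 was the lowest of its group and still above each LPS array. Signalling genes in the same 20 were the Ras relative Mras (-2.64 ± 0.10), the lipid phosphatase Inpp5d, known as SHIP1 (-2.41 ± 0.19), the beta-arrestin Arrb1 (-2.19 ± 0.13) and the Rap1 effector Rassf5 (-2.07 ± 0.17). Receptors and transporters were the proton-sensing Gpr65 (-2.64 ± 0.23), the lysophosphatidic acid receptor Lpar6 (-2.22 ± 0.11), the amino acid transporter Slc43a2 (-2.43 ± 0.16) and Clec2i (-2.07 ± 0.15), a lectin-like ligand of NK cell receptors. Tmem154 (-2.39 ± 0.21), Otulinl (-2.38 ± 0.17) and the junction protein Cgnl1 (-2.22 ± 0.13) fell by similar amounts. Lrrc32, the GARP protein that holds latent TGF-beta on the cell surface, read 5.47, 4.72 and 5.08 with LPS, against 7.11, 7.63 and 6.80 (-2.09 ± 0.23, adjusted p = 1.23e-05). Lrrc32 rose in GM-DC (1.67), so the responses ran in opposite directions (interaction -3.76, adjusted p = 4.04e-06). All 20 were called lower under every alternative that tested them.

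Genes of macrophage lineage and homeostasis fell in 16 of 38 members, 42.1% against 10.8% of all genes, and rose in 4 (10.5% against 6.54%), with a median of -0.19. Of the 38 members 37 lay above the median gene level of unstimulated GM-MF, so the shares over all genes are a low reference. Id3, an inhibitor of basic helix-loop-helix factors, read 5.44, 5.74 and 5.67 with LPS, against 7.90, 7.57 and 8.04 (-2.22 ± 0.18), and it also fell in GM-DC (-2.26, interaction 0.04, adjusted p = 0.976). The transcription factors Bhlhe41 (-1.35 ± 0.24), Cebpa (-1.24 ± 0.12) and Tfeb (-1.21 ± 0.10), the last a regulator of lysosomal genes, were lower too. Csf1r, the receptor of M-CSF, read 10.46, 10.11 and 10.37 with LPS and 11.22, 11.16 and 11.35 in unstimulated cells (-0.93 ± 0.12). Mertk, the receptor for dying cells, went against the majority and rose by 0.97 ± 0.16. Lyz2, lysozyme, at 12.95, 12.87 and 12.99 with LPS and 12.93, 12.78 and 12.90 without it, did not pass, and its groups overlapped. Cytokine receptors and their signalling genes were split, with 11 of 32 higher (34.4% against 6.54% of all genes) and 9 lower (28.1% against 10.8%). Il2ra, a chain of the receptor for interleukin-2, rose by 2.30 ± 0.18 and Il15ra by 1.85 ± 0.12, whereas the TGF-beta receptor Tgfbr1 fell by 1.79 ± 0.15 and the interleukin-6 receptor chains Il6ra by 1.59 ± 0.15 and Il6st by 1.35 ± 0.13. G protein-coupled, purinergic and RGS genes fell in 11 of 27 members (40.7% against 10.8% of all genes) and rose in 4 (14.8% against 6.54%). The nicotinic acid receptor Hcar2 rose by 1.77 ± 0.16 and the UDP receptor P2ry6 fell by 1.16 ± 0.11. Lysosome and autophagy genes fell in 6 of 27 (22.2% against 10.8% of all genes) and rose in 1 (3.7% against 6.54%), none of them 2-fold. The number that rose was 2 with the replicate block, an intensity trend, cyclic loess, quantile normalization or either filter on low values. It was 2 also without unstimulated replicate 3. Cell cycle and DNA replication genes fell in 12 of 37 (32.4% against 10.8% of all genes) and rose in 5 (13.5% against 6.54%). Ccnd2, a G1 cyclin, read 10.82, 10.93 and 10.52 with LPS, against 8.03, 8.70 and 7.97 (2.52 ± 0.18, adjusted p = 1.91e-07), and Ccnd1, a cyclin of the same family, read 6.95, 6.68 and 6.53 with LPS, against 7.95, 8.70 and 8.05 (-1.51 ± 0.20). The cyclins thus moved apart, and Ccnd1 rose in GM-DC (1.09, interaction -2.60, adjusted p = 3.48e-05).

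Cholesterol synthesis and uptake was the list with the most uniform decrease: 15 of 19 measured members fell, 78.9% against 10.8% of all genes, 11 of them at least 2-fold, and 0 rose, with a median of -1.18. Sqle, squalene epoxidase, read 6.91, 6.91 and 6.85 with LPS, against 8.49, 8.32 and 8.42 in unstimulated cells (-1.52 ± 0.17, adjusted p = 1.76e-05). Hmgcs1, an early enzyme of the pathway, read 7.96, 7.69 and 7.60 with LPS and 9.26, 9.09 and 9.05 without it (-1.38 ± 0.16), and the sterol enzymes Hsd17b7 (-1.41 ± 0.16) and Msmo1 (-1.34 ± 0.16) fell as well. Of the 4 that did not pass, Idi1 had a difference of 0.01 ± 0.12 and the feedback regulator Insig1 of -0.30 ± 0.14. In GM-DC the list had a median of -0.08, with 2 members higher and 2 lower, and the interaction was called for 12 members, each with the lower response in GM-MF. Among efflux, LXR target and oxysterol genes 1 of 19 rose (5.26% against 6.54% of all genes) and 6 fell (31.6% against 10.8%). The gene that rose was Ch25h, which makes 25-hydroxycholesterol, at 11.18, 11.22 and 11.47 with LPS and 8.93, 9.21 and 9.17 in unstimulated cells (2.19 ± 0.19, 4.55-fold, adjusted p = 1.18e-06). In GM-DC the Ch25h difference was 0.01 and did not pass (interaction 2.17, adjusted p = 9.13e-05). The desaturase Scd2 fell by 1.53 ± 0.17.

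Iron handling changed at several steps, with 9 of 20 members higher (45.0% against 6.54% of all genes) and 4 lower (20.0% against 10.8%). Beside Hamp and Lcn2, the ferroxidase Cp read 5.97, 5.92 and 6.19 with LPS, against 3.40, 3.29 and 3.36 (2.68 ± 0.12, adjusted p = 3.10e-09), and the iron importer Slc11a2 rose by 1.64 ± 0.14. Slc40a1, the iron exporter ferroportin that hepcidin binds, read 4.84, 5.15 and 5.22 with LPS, against 7.24, 6.68 and 7.37 in unstimulated cells (-2.03 ± 0.18, adjusted p = 2.16e-06). Tfrc, the transferrin receptor, fell by 1.52 ± 0.12, and it rose in GM-DC (0.46, interaction -1.98, adjusted p = 4.04e-06). The ferritin chains Fth1 (0.07 ± 0.10) and Ftl1 (0.08 ± 0.09) did not pass. Members called lower numbered 2 without LPS replicate 3 or unstimulated replicate 3.

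The Krebs cycle and its side reactions fell in 10 of 24 members, 41.7% against 10.8% of all genes, and rose in 1, with a median of -0.29. All 24 members lay above the median gene level of unstimulated GM-MF, so the share over all genes is a low reference. The cytosolic isocitrate dehydrogenase Idh1 read 9.31, 9.14 and 9.22 with LPS, against 10.53, 10.09 and 10.47 (-1.14 ± 0.12, adjusted p = 7.96e-06), the aconitase Aco1 fell by 0.95 ± 0.11 and the oxoglutarate dehydrogenase Ogdh by 0.74 ± 0.11. Without LPS replicate 3 the number that fell was 6, and without LPS replicate 1 or unstimulated replicate 3 the number that rose was 0. Acod1, which makes itaconate from the cycle, read 12.70, 12.60 and 12.70 with LPS and 12.39, 12.51 and 12.42 without it. These Acod1 groups lay apart by 0.23 ± 0.20, which did not pass (adjusted p = 0.554), and in GM-DC it rose by 2.16 (interaction -1.92, adjusted p = 0.000583). The error of the Acod1 difference includes the spread of the GM-DC arrays and is not that of the GM-MF arrays alone. Glycolysis, pentose phosphate and HIF target genes fell in 6 of 25 members (24.0% against 10.8% of all genes), or 3 without LPS replicate 3. Array means over the members overlapped, at 8.65 to 8.76 with LPS and 8.62 to 9.16 without it. In this list 2 rose (8.0% against 6.54%), or 4 without unstimulated replicate 2 and 1 without LPS replicate 1 or 2 or unstimulated replicate 1 or 3. The glycolytic activator Pfkfb3 rose by 1.49 ± 0.24 while the glucose transporter Slc2a1 read 9.37, 9.62 and 9.28 with LPS, against 10.21, 11.34 and 10.12 (-1.13 ± 0.25). Unstimulated replicate 2 was the highest array for Slc2a1, and without it the call stood.

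**Figure D4:**
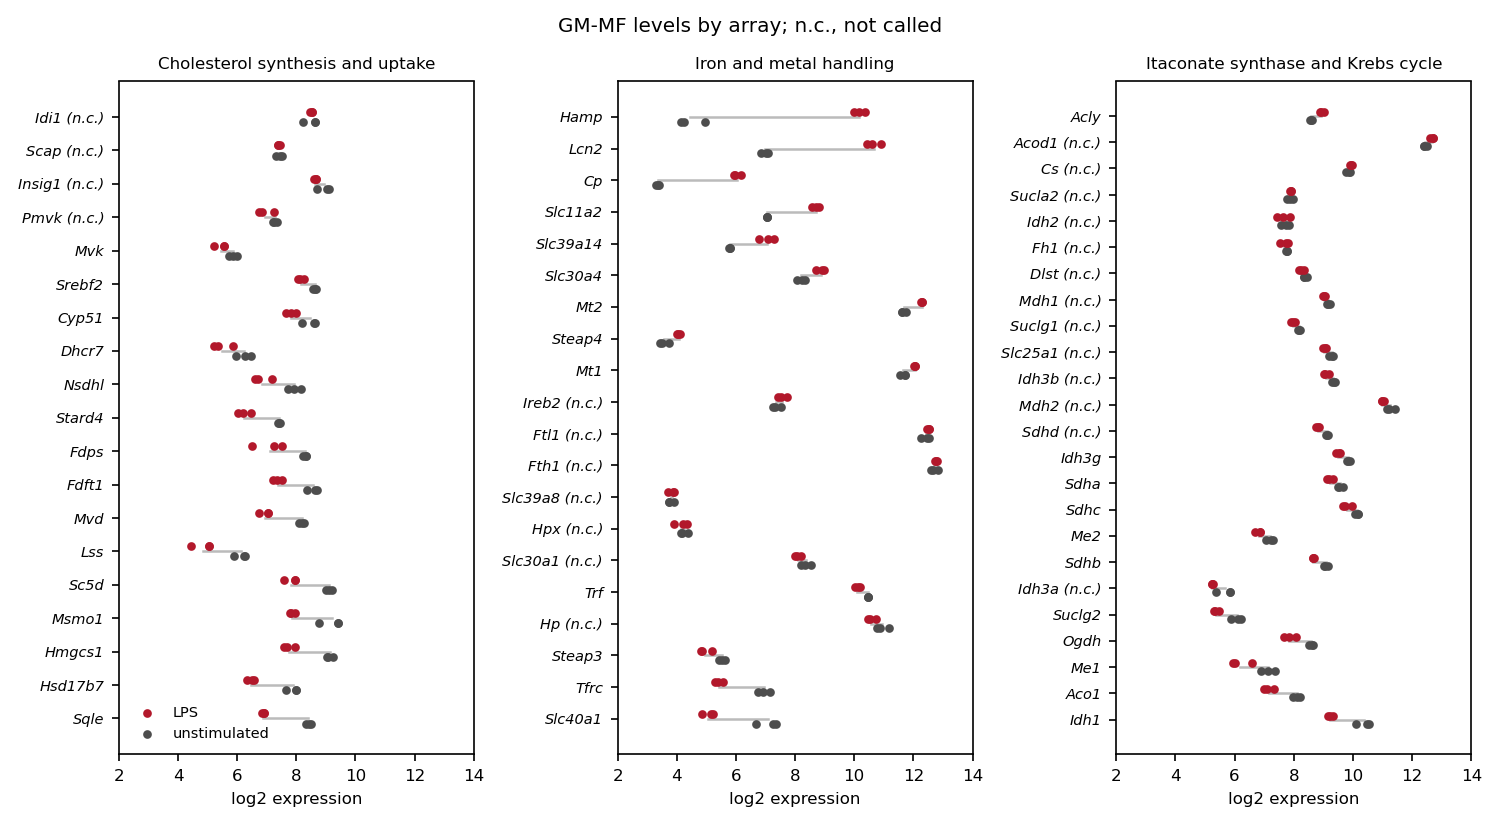
Log2 expression (x axis) of the cholesterol, iron and Krebs cycle lists in the GM-MF arrays, sorted by difference, with n.c. for genes not called. Red points are the 3 arrays with LPS, grey points the 3 unstimulated arrays and the line joins the group means. Most cholesterol genes lie to the left with LPS, and the iron list holds long lines in both directions.

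Arginine, nitric oxide and polyamine enzymes rose in 6 of 15 members, where 6.54% of all genes rose. They fell in 4, or 2 without LPS replicate 3, where 10.8% of all genes fell with all arrays. Beside Nos2 the members that rose were led by the arginine transporter Slc7a2 (1.16 ± 0.14), the arginase Arg2 (1.06 ± 0.15) and the polyamine enzyme Odc1 (0.94 ± 0.11). The arginase Arg1 read 9.55, 9.46 and 10.26 with LPS and 9.42, 9.27 and 9.91 in unstimulated cells, with overlapping groups (0.22 ± 0.20). Gch1, which starts the synthesis of the cofactor of nitric oxide synthase, had a difference of 0.39 ± 0.14 (adjusted p = 0.0755, and 0.0322 with the replicate block). For prostaglandins and leukotrienes 3 of 19 genes rose (15.8% against 6.54% of all genes) and 5 fell (26.3% against 10.8%), or 3 without any of 5 of the 6 arrays. Ptges, which makes prostaglandin E2, read 7.91, 7.94 and 8.06 with LPS, against 5.94, 6.40 and 6.33 (1.75 ± 0.15, adjusted p = 1.51e-06). Its receptor Ptger4 read 6.48, 6.72 and 6.61 with LPS, against 8.23, 7.98 and 8.24 (-1.55 ± 0.12, adjusted p = 6.24e-07). Enzyme and receptor therefore differed in direction, and in GM-DC neither passed (0.11 and 0.08). Oxidative burst and antioxidant genes fell in 7 of 24 members (29.2% against 10.8% of all genes). They rose in 2 (8.33% against 6.54%), or in 0 without LPS replicate 3 and in 1 without any other array. Ncf1, a subunit of the phagocyte oxidase, fell by 0.88 ± 0.11 and the NRF2 target Nqo1 by 0.86 ± 0.14.

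Marker lists of other cells that a marrow culture could hold were read beside these results. Dendritic cell markers rose in 8 of 17 members (47.1% against 6.54% of all genes) and fell in 2 (11.8% against 10.8%), or 1 without any of 4 of the 6 arrays. Their array means were 5.67 to 5.95 with LPS and 5.22 to 5.44 without it. The members that rose most were Ccr7, Fscn1, an actin-bundling protein (1.82 ± 0.32), and Ccl22 (1.57 ± 0.23), and the part of such cells in the results was not tested. Of 11 B, T and NK cell markers and of 13 mast cell, basophil and eosinophil markers 0 were called in either direction, with 1 called without unstimulated replicate 2 in the first list and 1 without LPS replicate 3 in the second. Array means were 3.65 to 3.77 with LPS and 3.55 to 3.88 without it for the first list, and 3.53 to 3.62 with LPS and 3.46 to 3.61 without it for the second. Of 15 neutrophil and granule markers 1 rose (6.67% against 6.54% of all genes), or 3 with the replicate block. Of 7 plasmacytoid dendritic cell markers 2 rose (28.6%). Of 8 stromal and erythroid markers 1 was called higher and 1 lower (12.5% each). Pdgfrb, a receptor of mesenchymal cells, rose by 0.62 ± 0.12. Acta2, smooth muscle actin, had a difference of -0.41 ± 0.13 (adjusted p = 0.0482) that was lost under 10 alternatives. Of 7 monocyte markers 1 was called higher and 1 lower (14.3% each, against 6.54% and 10.8% of all genes). Vcan, the matrix proteoglycan versican, rose by 1.72 ± 0.28 and Ccr2 fell. Of 11 housekeeping genes 0 rose and 2 fell (18.2% against 10.8% of all genes), or 1 without LPS replicate 1 or 3 or unstimulated replicate 2. Their array means were 10.6 with LPS and 10.7 without it.

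**Figure D5:**
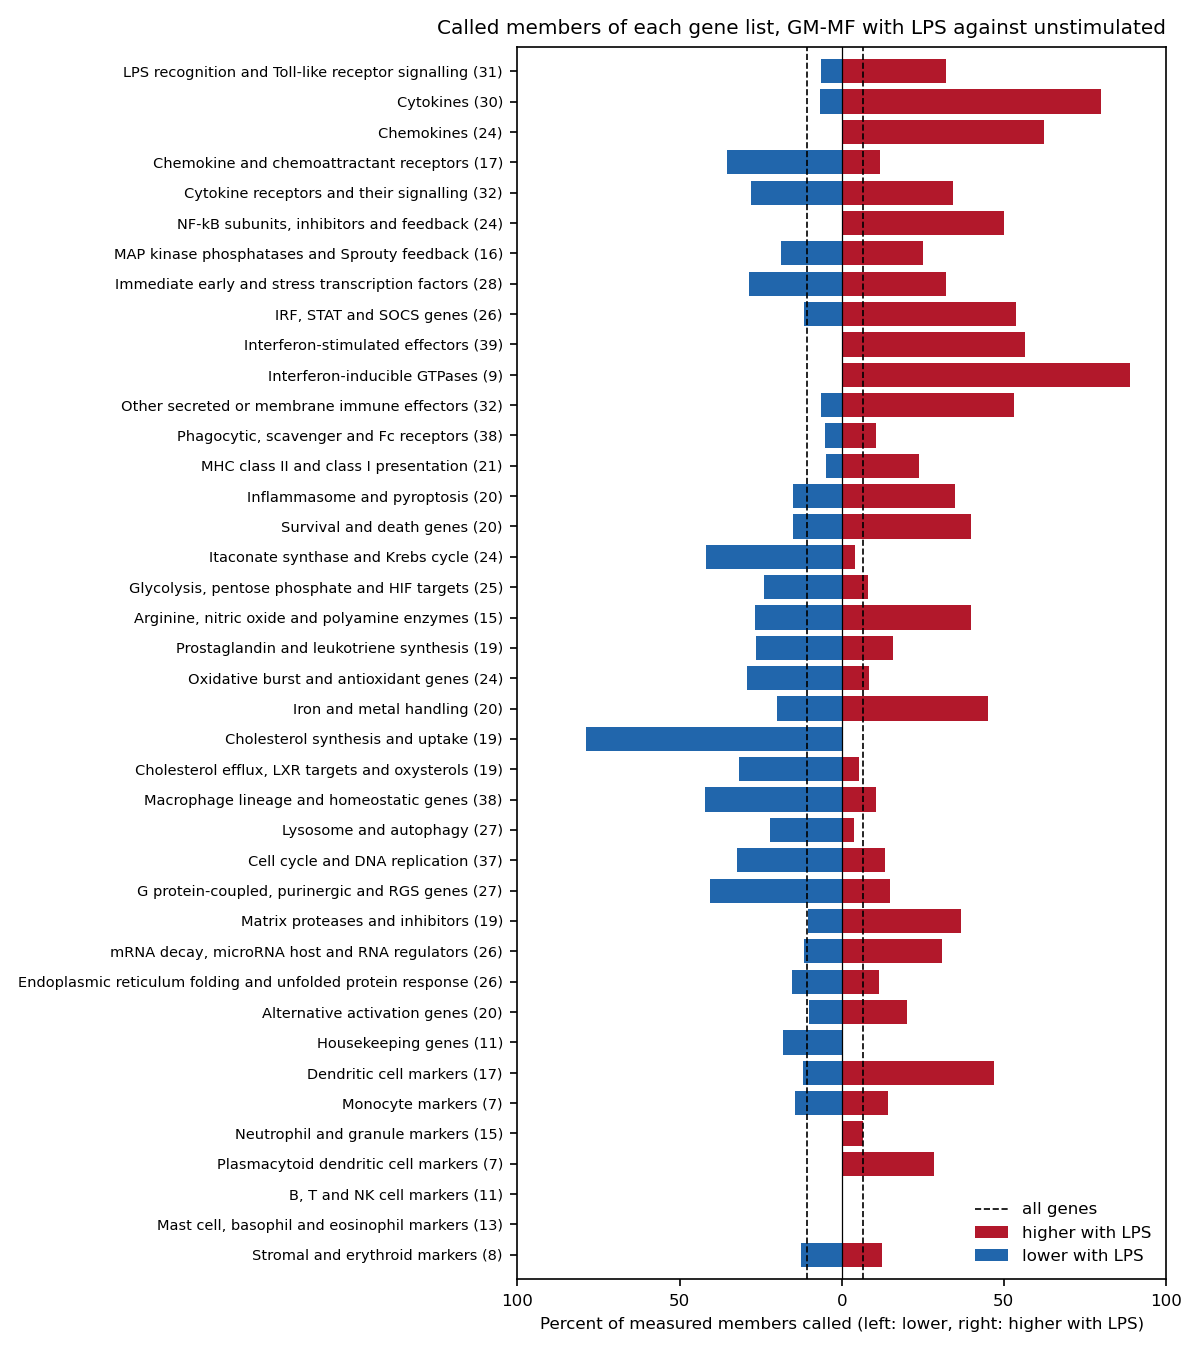
Percent of the measured members (number in brackets) of each gene list called lower (left) or higher (right) with LPS in GM-MF at an adjusted p under 0.05. The dashed lines mark the shares over all genes, 6.54% higher and 10.8% lower. Interferon-inducible GTPases (88.9% higher) and cytokines (80.0% higher) extend furthest to the right and cholesterol synthesis and uptake (78.9% lower) furthest to the left.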

How the data were processed

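RNA of the 12 samples was hybridised to Affymetrix Mouse Gene 1.0 arrays. The deposited values are log2 expression per probe set, which the authors obtained with RMA. The submitters' processing notes name R 3.0.2. The base 2 was taken from the range of the values, 1.18 to 13.7, and no background call was used. The authors' genome build is not given in the sources used here, and coordinates are those of the RefSeq sequences on GRCm38.p6. Of 35556 probe sets, 21789 had 1 gene symbol, 1621 several and 12146 none. For the 999 genes with several probe sets the one with the highest mean was kept, which left 19938 genes. Arrays, not reads, were the measurement, and their number (3 per group) limits the precision.

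A linear model with 4 group means was fitted to all 12 arrays with limma 3.58.1 in R 4.3.3 (lmFit and eBayes, 8 residual degrees of freedom), p-values were adjusted over all genes by Benjamini-Hochberg, and calls were made where the adjusted p was under 0.05. The interaction is the GM-MF response minus the GM-DC response. On simulated data the procedure recovered 41.8%, 91% and 100% of genes changed by 0.5, 1 and 2 on the log2 scale.

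Replicate numbers were checked as pairs. Deviations from the group means correlated at 0.257, 0.188 and 0.104 for equal numbers and at -0.216 to 0.0254 for unequal numbers in GM-MF. Deviations cancel out within a group, so positive values for equal numbers bring lower ones for unequal numbers, and the contrast cannot settle pairing. The numbers were treated as pairs only in alternative fits with the replicate number as a block.

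Genes named are the 20 called genes with the largest difference in each direction whose groups did not overlap, without clone and predicted names, and the members of 40 gene lists, of which up to 4 called members per direction and 2 uncalled members with the highest level were shown first. Other list members were named for their known roles after their values were seen. The members and lists were chosen with earlier results of these data known. The 17 alternatives covered the arrays in the fit, the block, the variance prior, array weights, scaling, filters on low values, probe set averaging and leaving out each array.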

Additional observations from a re-analysis of the deposited data

Results flagged for a closer look

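The LPS response differed between GM-MF and GM-DC for 1514 genes (7.59% of all genes) in limma's interaction test. Among them were 275 of the 859 named genes. Named genes were picked by their GM-MF response or came from lists chosen with earlier results known, so the choice can favour a large share. Listed here are those of the 275 called in opposite directions at 2-fold or more or differing by at least 3 on the log2 scale. The size of 3 was chosen after the values were seen. All values are the GM-MF response minus the GM-DC response.

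Larger in GM-MF were the responses of Il6 (4.23), Hamp (4.05), Il1f6 (3.71), Nos2 (3.63), Il19 (3.56), Penk (3.27), Hdc (3.11) and Il10 (3.06). Smaller in GM-MF were those of the antiviral genes Slfn1 (-4.10), Ifit1 (-3.97), Xaf1 (-3.84), Samd9l (-3.83), Rtp4 (-3.81), Ifit2 (-3.72), Irgm1 (-3.56), Oasl2 (-3.56), Slfn5 (-3.28), Slfn8 (-3.25), Ddx58 (-3.04) and Trim30a (-3.02), and of the chemokine Ccl3 (-3.20) and the lectin receptor Clec4e (-3.14). In opposite directions ran Lrrc32 (-3.76), the urokinase gene Plau (-3.01), which fell by 1.45 in GM-MF and rose by 1.56 in GM-DC, and Ccnd1 (-2.60).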

How the results depend on the processing

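Under 17 alternatives the counts of genes higher, lower and changed at least 2-fold in each direction stayed within 1.5 times the reported counts, and so did the count called in the interaction under the alternatives that included GM-DC arrays. Leaving out each GM-MF array in turn gave 1087 to 1231 genes higher, 1598 to 2092 lower, 349 to 387 higher and 249 to 329 lower at 2-fold or more, and 1212 to 1528 in the interaction. With the replicate block within each cell type there were 1522 genes higher, 2459 lower and 1939 in the interaction. The block took the call from 2 named genes, Il10ra and Chil4, and gave it to 49. Of 407 named genes called, 322 were called under every alternative that tested them and 0 changed sign, and so were all 40 genes with the largest changes. Counts over gene lists moved by more than 1.5 times in some alternatives, mostly where 3 or fewer members were called. The medians of the prostaglandin, endoplasmic reticulum and stromal lists lay near 0 and changed sign under cyclic loess. The cause of these shifts was not tested. Where a probe set lay near background the fold is limited by signal, and no detection call was used.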

Other observations

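Matrix proteases and their inhibitors held large increases: of 19 measured 7 rose (36.8% against 6.54% of all genes), 6 of them at least 2-fold. In this list 2 fell (10.5% against 10.8%), or 1 without unstimulated replicate 2. Timp1, an inhibitor of metalloproteinases, read 9.78, 9.86 and 9.35 with LPS, against 7.38, 7.49 and 6.25 in unstimulated cells (2.62 ± 0.36, limma adjusted p = 9.94e-05). The membrane metalloproteinase Mmp25 rose by 1.81 ± 0.22, and the collagenase Mmp13 read 12.19, 12.08 and 12.36 with LPS, against 10.78, 10.82 and 10.85 (1.40 ± 0.19). The urokinase gene Plau read 8.36, 7.97 and 8.61 with LPS, against 9.73, 9.58 and 9.99 (-1.45 ± 0.19), while Plat, the tissue plasminogen activator, rose by 1.24 ± 0.21. Both plasminogen activators thus changed, in opposite directions. The elastase Mmp12 had overlapping groups (-0.02 ± 0.12).

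Of 26 genes of endoplasmic reticulum folding 3 were higher (11.5% against 6.54% of all genes), 4 lower (15.4% against 10.8%) and 19 not called. All 26 lay above the median gene level of unstimulated GM-MF, so the shares over all genes are a low reference. Herpud1, a factor of protein degradation at the reticulum, read 6.60, 6.68 and 6.37 with LPS, against 7.65, 7.83 and 7.66 (-1.16 ± 0.13, limma adjusted p = 2.01e-05). The stress factor Ddit3 fell by 0.81 ± 0.10 and the chaperone cofactor Dnajb9 rose by 0.93 ± 0.17. Of 20 alternative activation genes 4 rose (20.0% against 6.54% of all genes), or 2 without unstimulated replicate 1 or 3, and 2 fell (10.0% against 10.8%). The mannose receptor Mrc1 read 8.42, 8.15 and 8.48 with LPS and 8.16, 7.93 and 8.12 in unstimulated cells, with overlapping groups (0.28 ± 0.16), and the interleukin-4 receptor Il4ra rose by 0.51 ± 0.12.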
